A study of Mus musculus with 2 samples.

Results

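The Twist, Hand, Prrx and Alx factors and Gsc are DNA-binding proteins of embryonic head mesenchyme, the loose connective tissue that builds the jaw, palate and tongue stroma. The set examined here holds 9 of the 22072 gene symbols in the deposited tables: the basic helix-loop-helix (bHLH) genes Twist1, Twist2, Hand1 and Hand2, and the homeobox genes Prrx1, Prrx2, Alx1, Alx4 and Gsc. They were found by symbol, with the values of all transcripts of a symbol added up. RNA came from tongues of mouse embryos of mixed background at embryonic day 12, with 1 library for each of 2 genotypes. The control was labelled Osr1f/+, with 1 floxed and 1 wild-type allele of Osr1, a zinc finger factor of the same mesenchyme. The mutant was labelled Osr1f/-; Wnt1cre, with the floxed allele over a null allele and a Cre transgene driven in the Wnt1 lineage, which covers the cranial neural crest. Both groups thus carried a floxed allele, and the control label names no Cre. Per the design text, tissue of 3 pairs was combined before RNA extraction, so each library is a pool and holds no measure of variation between embryos. No test between genotypes could be made, and each ratio below compares 2 libraries. In such bulk RNA, fewer cells of a type and less RNA per cell cannot be told apart.

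As background, bHLH proteins bind the short DNA word called the E box as pairs, usually with an E protein, and Id proteins hold E proteins away from DNA. Twist1 keeps cranial mesenchyme in its state and is needed for closure of the cranial neural tube, and Twist2 acts in dermis and other connective tissue. Hand2 is switched on in the ventral mandibular arch by endothelin signalling through Dlx factors, and Hand1 marks the most distal part of the arch. Prrx1 and Prrx2 act together in growth of the mandible and limb. Alx1 and Alx4 act mainly in the frontonasal and upper face mesenchyme, and Gsc (goosecoid) acts in mandible, tongue region and middle ear.

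The DNA-contacting parts show how alike the members are, which also bears on whether reads could be told apart between them. The stretches were read from GENCODE transcripts (GRCm38) that match the deposited RefSeq IDs, found for all 11 member transcripts. For the 4 bHLH genes, 42 coding bases of the basic region are given, with the codon of the glutamate that reads the E box in capitals. They lie at chr12:33958326-33958367 (plus strand), chr1:91801837-91801878 (plus), chr11:57831451-57831492 (minus) and chr8:57322216-57322257 (plus), in the order printed.
Twist1: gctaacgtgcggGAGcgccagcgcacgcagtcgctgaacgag
Twist2: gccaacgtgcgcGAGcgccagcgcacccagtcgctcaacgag
Hand1: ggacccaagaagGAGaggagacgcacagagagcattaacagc
Hand2: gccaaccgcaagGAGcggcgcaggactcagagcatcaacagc

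Twist1 and Twist2 differed at 4 of these 42 bases and at none of the 14 residues they encode. Hand1 and Hand2 differed at 15 bases and 4 residues, and Twist1 and Hand2 at 20 bases and 5 residues. Over the whole conceptual translations, 82.5% of the 160 residues of Twist2 were matched in Twist1 (206 residues). The share was 56.9% for Hand1 and Hand2, of 216 and 217 residues. By sequence, the Twist pair was thus closer than the Hand pair. Within the basic region, Hand1 stood farthest from the Twist genes, differing from each at 8 of the 14 residues. Over whole translations this did not hold for Twist2, which shared 31.9% of its residues with Hand1 and 30% with Hand2.

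For the 5 homeobox genes, 45 coding bases around the third helix of the homeodomain are given, the helix that lies in the major groove. Capitals mark the codon of homeodomain position 50, a residue that helps to set which DNA word is bound. Each stretch is spliced from 2 exons, within chr1:163257913-163261854 (minus strand), chr2:30878577-30879521 (plus), chr10:103022276-103025149 (minus), chr2:93668651-93675325 (plus) and chr12:104471617-104472007 (minus), in the order printed.
Prrx1: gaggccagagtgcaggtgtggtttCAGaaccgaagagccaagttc
Prrx2: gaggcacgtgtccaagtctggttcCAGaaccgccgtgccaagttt
Alx1: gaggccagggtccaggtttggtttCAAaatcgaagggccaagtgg
Alx4: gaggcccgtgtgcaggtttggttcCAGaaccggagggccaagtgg
Gsc: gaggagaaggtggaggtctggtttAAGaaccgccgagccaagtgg

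The marked codon encodes glutamine in Prrx1, Prrx2, Alx1 and Alx4 and lysine in Gsc. Prrx1 and Prrx2 encode the same 15 residues here but differ at 11 bases, and Alx1 and Alx4 also encode the same residues with 7 bases different. Gsc differed from the Prrx genes at 5 residues and from the Alx genes at 4. Over whole translations, Prrx1 and Prrx2 shared 63.3% of residues of the shorter protein and Alx1 and Alx4 shared 42.9%, whereas Gsc shared 25.3% to 33.6% with the other homeobox members. No stretch of 47 bases, about the length that 1 read added to the coverage, was shared between any 2 of the 9 genes. Only identical stretches were searched for, so whether reads with mismatches were counted for the right paralog was not tested. Twist2 and Hand2 do share identical bases with a transcript of the opposite strand. Of the 47-base windows of Twist2, 50.1% also lie in the antisense transcript Gm29100, and 16.0% of those of Hand2 lie in Hand2os1. Neither has a row under these names in the deposited data, and whether strand was used in counting is not given in the sources used here. Within the shared windows, reads of Twist2 and Hand2 may therefore not be separable from reads of these partners. In the deposited mm9 table no gene model overlapped any of the 9.

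The libraries stood as follows. Depth was estimated at about 19000000 mapped reads for the control and 23200000 for the mutant library, so a 1 kb transcript with 3 reads has 0.158 and 0.129 FPKM (fragments scaled to transcript length and to the mapped total). Osr1 had 56.8 FPKM in control RNA and 18.4 FPKM in mutant RNA, a ratio of 0.325 (95% counting interval 0.300 to 0.351), which goes with the labels. The value covers the whole transcript, including any part left by the conditional allele. Of the 22072 symbols, 12383 were measured, meaning at least 1 FPKM in either library with every row of status OK. All 9 factors were measured, through 11 transcript rows. All intervals below reflect the counting of reads alone. Copies made by amplification are not separate molecules, so the intervals may be too narrow even for counting error.

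The 9 factors kept nearly the same summed level, 276.8 FPKM in control RNA and 280.6 FPKM in mutant RNA. Hand1 was at 0.758 of its control level in the mutant library, Twist2 was modestly lower and Alx4 slightly higher, and the counting interval of the other 6 included no difference. Their log2 ratios (mutant over control, with 1 FPKM added to each) had a median of 0.01, beside 0.00348 over all measured genes. Of the 9, 5 were higher and 4 lower in the mutant library, beside 51.2% of all measured genes higher. No member reached a log2 ratio of 0.32, the fold threshold used, as 3.23% of all measured genes did. Hand1 alone was lower by as much, beside 2.20% of all measured genes. A counting interval wholly above 1 was found for 1 of the 9, Alx4, beside 10.8% of all measured genes. An interval wholly below 1 was found for 2 of the 9, Hand1 and Twist2, beside 10.4%. With 9 genes, these counts are given as a description and set no group apart from other genes.

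**Figure D1:**
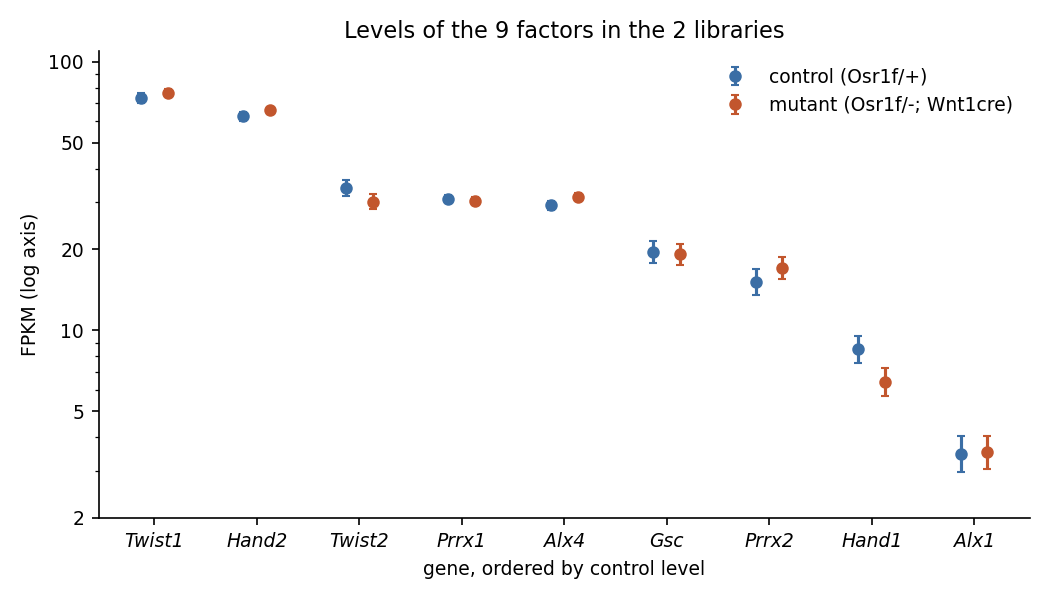
FPKM of each factor on a log axis in the control library (blue) and the mutant library (orange), ordered by the control level; bars are exact 95% counting intervals. Twist1 and Hand2 stand above 60 FPKM in both libraries and Alx1 is lowest at about 3.5 FPKM, and the pair of points is clearly apart for Hand1.

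In the deposited coordinates, Twist1 (mm9 chr12:34642536-34644696) was the most abundant of the 9 in both libraries, with 73.4 FPKM in control RNA and 76.6 FPKM in mutant RNA. This level was above that of 95.2% of measured genes in the control library. The ratio was 1.04 (0.987 to 1.10), from about 2269 and 2899 reads, so its interval included no difference. Twist2 (mm9 chr1:93698054-93744604) had 34.0 FPKM in control RNA and 30.2 FPKM in mutant RNA. Its ratio of 0.887 (0.807 to 0.975), from about 846 and 919 reads, left out 1 by counting error, and its log2 ratio of −0.17 was at the 8.54th percentile of measured genes. The antisense overlap of Twist2 given above touches this value.

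Because the Twist pair shares its DNA-binding residues, its sum and its balance were also compared. The sum of Twist1 and Twist2 was 107.4 FPKM in control RNA and 106.7 FPKM in mutant RNA, while the ratio of Twist1 to Twist2 was 2.16 in control RNA and 2.54 in mutant RNA. The balance was thus shifted towards Twist1 by a factor of 1.18 (exact conditional 95% interval 1.05 to 1.31, counting error only). The same comparison was made for 4 pairs in all.

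Hand2 (mm9 chr8:59799780-59803314) had 62.7 FPKM in control RNA and 65.9 FPKM in mutant RNA, the next highest level after Twist1 in both. Its ratio of 1.05 (0.999 to 1.11), from about 2658 and 3423 reads, only just included 1. Hand1 (mm9 chr11:57642215-57645649) had 8.49 FPKM in control RNA and 6.44 FPKM in mutant RNA, a difference of −2.05 FPKM. The ratio was 0.758 (0.645 to 0.897), from about 305 and 284 reads, and the log2 ratio of −0.35 ranked 238th from the lowest of 12383 genes. On the plain FPKM ratio, Hand1 lay just inside the central 95% of all measured genes, which ran from 0.745 to 1.42. On the scale of FPKM plus 1 it lay outside, since the lower bound there was −0.31. Among measured genes of at least 5 FPKM the central 95% of plain ratios was narrower, 0.832 to 1.24, and Hand1 lay below it.

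Of the Hand genes, only Hand1 thus differed beyond counting error. The balance of the pair, which the antisense overlap of Hand2 given above touches, also shifted. The ratio of Hand2 to Hand1 was 7.39 in control RNA and 10.2 in mutant RNA, a shift by a factor of 1.39 (1.16 to 1.64), the largest of the 4 pairs. Their sum was 71.2 FPKM in control RNA and 72.4 FPKM in mutant RNA, so the lower Hand1 value removed little from the total. The nearest measured genes on either side of Hand1, Sap30l and Larp1, named for their position, had ratios of 1.04 (0.895 to 1.20) and 0.966 (0.925 to 1.01).

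**Figure D2:**
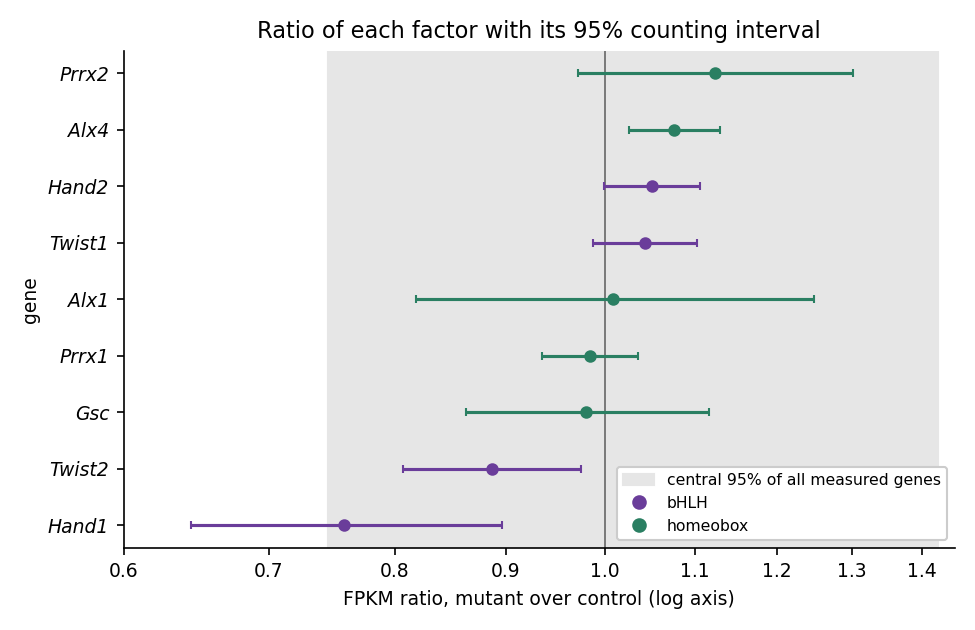
Ratio of mutant to control FPKM on a log axis for each factor, with exact conditional 95% counting intervals; purple marks bHLH genes, green homeobox genes, and the grey band the central 95% of all measured genes (0.745 to 1.42). Hand1 and Twist2 have intervals below 1 and Alx4 above 1, and all 9 points lie inside the band. For measured genes of at least 5 FPKM the band would be 0.832 to 1.24, with Hand1 below it.

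Prrx1 (mm9 chr1:165175250-165243781) had 30.9 FPKM in control RNA and 30.4 FPKM in mutant RNA. The ratio of 0.984 (0.936 to 1.04) rested on about 2780 and 3360 reads. Prrx2 (mm9 chr2:30700887-30736767) had 15.1 FPKM in control RNA and 17.0 FPKM in mutant RNA, a ratio of 1.12 (0.972 to 1.30) from about 324 and 446 reads. This was the highest ratio among the 9, at the 88.3rd percentile of measured genes, and its interval still included 1. The ratio of Prrx1 to Prrx2 was 2.04 in control RNA and 1.78 in mutant RNA, a factor of 0.876 whose interval of 0.752 to 1.02 included no shift.

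Prrx1 was the one member with several deposited transcripts, which share their first 199 codons, homeodomain included, and differ at the C-terminal end. NM_011127 encodes 245 residues and ends in the OAR motif, a short conserved tail of several paired-class homeodomain proteins. NM_175686 includes an extra exon of 72 bases with an early stop and encodes 217 residues, without the motif. NM_001025570 has 3 exons and encodes 200 residues, also without the motif. The coding parts of the last coding exons are shown since they are where the first 2 proteins part. They lie at chr1:163248261-163248396 and chr1:163253997-163254048 (GRCm38, minus strand), and capitals mark the bases of the OAR motif that was searched for.
NM_011127: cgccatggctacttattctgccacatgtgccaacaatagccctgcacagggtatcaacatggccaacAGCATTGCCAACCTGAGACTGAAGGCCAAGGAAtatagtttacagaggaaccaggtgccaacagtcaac
NM_175686: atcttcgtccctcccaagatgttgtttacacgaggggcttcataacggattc

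All 3 transcripts were listed in both libraries in the same order. NM_011127 had 14.4 FPKM in control RNA and 14.9 FPKM in mutant RNA, which was 46.8% and 49.2% of the Prrx1 sum. NM_175686 had 9.99 and 9.58 FPKM, or 32.4% and 31.5%, and NM_001025570 had 6.43 and 5.85 FPKM, or 20.9% and 19.2%. The OAR-encoding form thus made up the largest share of Prrx1 in each library. The authors' tool estimated these shares from reads that the transcripts mostly have in common, so the files give no error for them and the shift of a few percentage points was not tested.

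**Figure D3:**
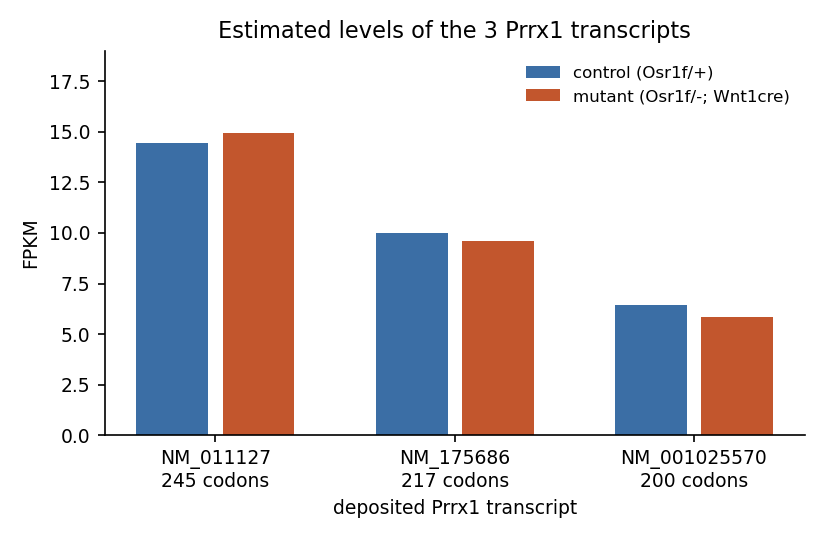
FPKM of the 3 deposited Prrx1 transcripts, labelled with the number of codons, in the control (blue) and mutant (orange) library; bars start at 0 and carry no error because the files give none. The form of 245 codons is the most abundant in both libraries, at 14.4 and 14.9 FPKM.

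Alx4 (mm9 chr2:93482591-93521496) had 29.2 FPKM in control RNA and 31.5 FPKM in mutant RNA. Its ratio of 1.08 (1.03 to 1.13), from about 2883 and 3802 reads, was above 1 beyond counting error while being small, with a log2 ratio of 0.10. Alx1 (mm9 chr10:102470481-102491411) had 3.47 FPKM in control RNA and 3.50 FPKM in mutant RNA, the lowest of the 9 in both. With about 164 and 203 reads its ratio of 1.01 had the wide interval of 0.819 to 1.249, so differences inside these bounds were not detectable at this depth. The ratio of Alx4 to Alx1 was 8.41 in control RNA and 8.98 in mutant RNA (factor 1.07, 0.857 to 1.32).

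Gsc (mm9 chr12:105709419-105711446), the one member with lysine at homeodomain position 50, had 19.5 FPKM in control RNA and 19.2 FPKM in mutant RNA. The ratio was 0.980 (0.863 to 1.12) from about 435 and 523 reads, so its interval included no difference.

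The 4 bHLH genes together had 178.6 FPKM in control RNA and 179.1 FPKM in mutant RNA, and the 5 homeobox genes 98.2 and 101.5 FPKM. Twist1 made up 26.5% (control) and 27.3% (mutant) of the sum of all 9, and Hand2 22.7% and 23.5%. Hand1 held 3.07% and 2.29% of it, and Twist2 12.3% and 10.8%. The same few genes thus made most of the signal in both libraries.

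The genes next to the 9 on the chromosome were looked at by position alone, the nearest measured gene on either side, 18 in all. Their ratios ran from 0.836 to 2.29. An interval that left out 1 was found for 3 of the 18, beside 10.8% of all measured genes above 1 and 10.4% below. Fmo1, an oxygenase gene 379 kb from Prrx1, was the highest, with 1.04 and 2.39 FPKM, while Prrx1 itself had a ratio of 0.984. Gorab, the nearer neighbour of Prrx1 at 71.3 kb, had 5.53 and 6.92 FPKM. The other one was Tmtc2, the nearest measured gene on 1 side of Alx1 at a distance of 2133 kb, with a ratio of 0.911 (0.839 to 0.989). The neighbours of Twist2, Asb1 and Hdac4, had ratios of 0.918 and 0.985 beside 0.887 for Twist2.

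The order of levels was much the same in the 2 libraries. In the control it ran Twist1, Hand2, Twist2, Prrx1, Alx4, Gsc, Prrx2, Hand1 and Alx1. In the mutant library Alx4 and Prrx1 stood above Twist2 and the rest kept their places. The counting intervals of Twist2 and Prrx1 and of Prrx1 and Alx4 overlapped in the control, and those of Alx4, Prrx1 and Twist2 overlapped next to each other in the mutant library. Twist2 and Alx4 did not overlap in the control (31.8 to 36.4 and 28.2 to 30.3 FPKM) but did in the mutant library (28.2 to 32.2 and 30.5 to 32.5 FPKM), so Twist2 stood above Alx4 beyond counting error in the control alone. Gsc and Prrx2 did not overlap in the control, at 19.5 and 15.1 FPKM, but did in the mutant library, at 19.2 and 17.0 FPKM.

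**Figure D4:**
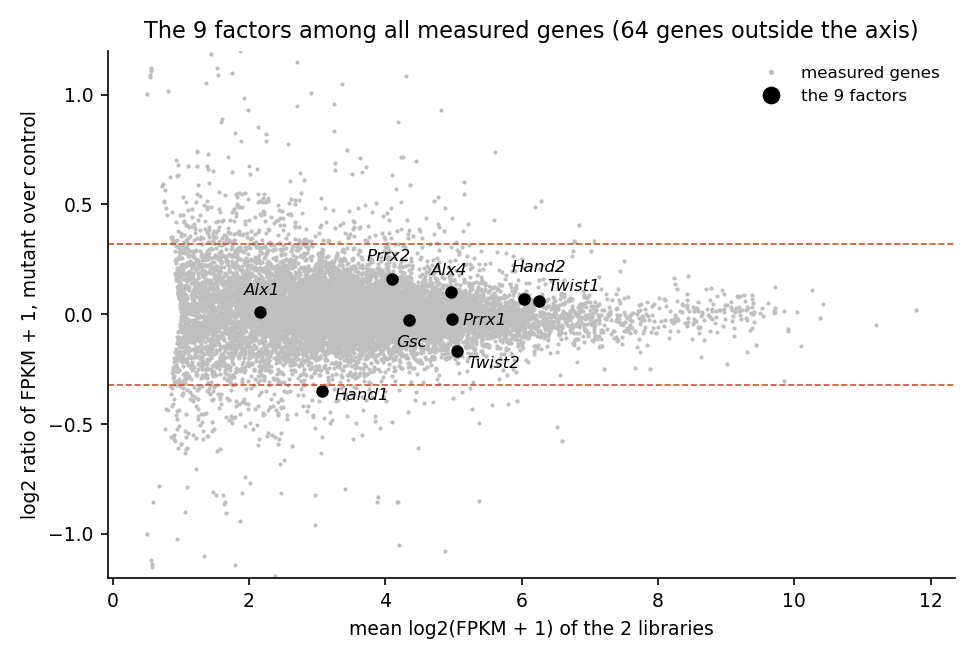
Log2 ratio of FPKM plus 1 (mutant over control) against the mean log2 level for 12383 measured genes (grey) and the 9 factors (black); dashed lines mark a log2 ratio of 0.32 in either direction, and 64 genes lie outside the axis. Only Hand1 among the 9 lies past a dashed line.

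Among the dimer partners, the E protein genes Tcf3, Tcf4 and Tcf12 and the Id genes were all measured, and 2 of 7 were higher and 5 lower. Tcf3 had a ratio of 0.960 (0.926 to 0.995) and Tcf4 had 59.2 FPKM in each library, with an interval of 0.972 to 1.03. Their median log2 ratio was −0.06, beside 0.00348 over all measured genes. Id1, which keeps E proteins off DNA, had 41.4 FPKM in control RNA and 32.7 FPKM in mutant RNA, a ratio of 0.788 (0.709 to 0.876). Id3 had a ratio of 0.897 (0.829 to 0.971) and Id2 of 1.18 (1.08 to 1.28), in the opposite direction. Tcf12, with 97.0 and 91.5 FPKM, had a ratio of 0.944 (0.917 to 0.971).

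Of 16 other bHLH genes near Twist and Hand, 6 were measured, with 1 higher and 5 lower and a median of −0.15. That sign depends on low genes, since the median was 0 with no filter. Among those of at least 5 FPKM, which are Scx and Msc alone, it was 0.18. Scx, the factor of tendon progenitors, was the higher one, with a ratio of 1.42 (1.27 to 1.58). Msc, a factor of head muscle precursors, had 0.913 (0.790 to 1.06). Of 27 other paired-class homeobox and Pax genes, 11 were measured, 2 higher and 9 lower, with a median of −0.07. Pitx1, which acts in oral epithelium and mandible, had a ratio of 0.968 (0.913 to 1.03).

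The arch pathway upstream of Hand2 was described from ligand to target. Of its 17 genes 15 were measured, 10 higher and 5 lower, with a median of 0.05, or −0.0050 among those of at least 5 FPKM. The ligand gene Edn1 was under 1 FPKM in both libraries, at 0.388 and 0.426 FPKM. Its receptor gene Ednra had 22.2 FPKM in control RNA and 21.2 FPKM in mutant RNA (ratio 0.956, 0.892 to 1.02), and Ece1, which encodes the enzyme that activates the ligand, had a ratio of 0.904 (0.847 to 0.965). Ednrb, the other receptor and a gene of crest-derived pigment and nerve lineages, had 0.538 (0.494 to 0.585). The only genes of the list with a log2 ratio above 0.32 were Dlx5, Dlx6 and Msx2, homeobox genes of low level named after their values were seen. Dlx5 had 1.62 and 3.63 FPKM (ratio 2.25, 1.57 to 3.27), Dlx6 0.827 and 2.06 FPKM, and Msx2 0.860 and 1.97 FPKM. Hand2 and Gsc, which are known to act downstream of this pathway in the arches, had ratios of 1.05 and 0.980 in the same libraries.

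Of 12 genes of epithelial to mesenchymal transition, a process Twist1 is known to drive, 11 were measured, 3 higher and 8 lower, with a median of −0.05. Snai2, a zinc finger factor of crest mesenchyme, had a ratio of 0.897 (0.819 to 0.982), Snai1 of 0.933 (0.841 to 1.04) and the filament gene Vim of 0.961 (0.935 to 0.989). The cadherin gene Cdh1, the only epithelial gene of the list, was lower as well, at 0.888 (0.814 to 0.969). Of the separate epithelial markers, Cdh1 included, 9 of 10 were lower, and a change in the transition was not tested. Of 14 signal genes tied to the 9 factors 13 were measured, 6 higher and 7 lower, with a median of −0.04. Gli1, a target of hedgehog signalling, had 38.2 and 29.7 FPKM (ratio 0.777, 0.736 to 0.821). The hedgehog ligand gene Shh had a ratio of 0.757 (0.648 to 0.887). Ptch1, another hedgehog target, had 0.970 (0.925 to 1.02), so the targets on the list did not move alike. Fgfr2, an FGF receptor, had 1.21 (1.14 to 1.28).

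Marker genes of tissues in the dissection also differed between the libraries, and their part in the values above was not tested. Markers of crest mesenchyme, the tissue in which the 9 factors are mainly made, were all measured, 5 of 16 higher and 11 lower. Their median log2 ratio was −0.16, and 9 intervals lay wholly below 1 against 4 above. Over all measured genes, 10.4% of intervals lay wholly below 1 and 10.8% above. The matrix gene Dcn (ratio 0.680, 0.604 to 0.766) and the forkhead gene Foxd1 (0.747, 0.705 to 0.791) were lower, and the chemokine gene Cxcl12 (1.26, 1.22 to 1.30) and the Osr1 paralog Osr2 (1.27, 1.13 to 1.44) were higher. The level summed over all listed genes was 1323 FPKM in control RNA and 1305 FPKM in mutant RNA. Cartilage markers were higher in 13 of 13 measured genes (summed 235 and 322 FPKM) and Hox genes of tissue behind the tongue in 7 of 7 (30.2 and 38.1 FPKM). Erythroid markers were lower in 8 of 8 (1451 and 1196 FPKM), epithelial markers in 9 of 10 (137 and 120 FPKM), and neuron and Schwann markers in 8 of 12 (85.1 and 69.4 FPKM). Muscle markers were lower in 8 of 13, with a higher sum (754 and 781 FPKM), endothelial markers higher in 7 of 9 (76.5 and 80.5 FPKM) and macrophage markers higher in 6 of 7 (23.2 and 28.2 FPKM). No gene of these marker lists had an FPKM of exactly 0, but 2 of the near-identical globin genes had values worth no read. Hba-a2 had 0 estimated reads in both libraries, and Hbb-b2 had 18 (control) and 0 (mutant).

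**Figure D5:**
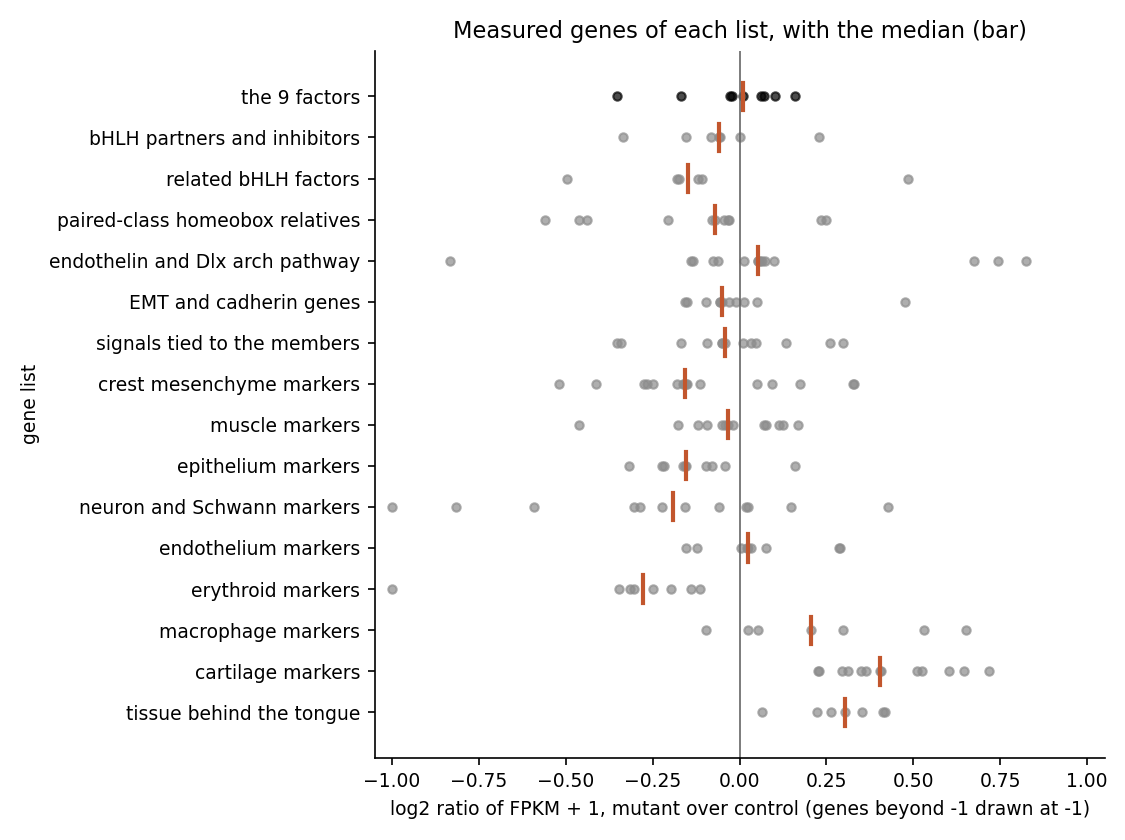
Log2 ratio of FPKM plus 1 (mutant over control) for each measured gene (points) of the 9 factors and of each gene list, with the list median as an orange bar; values beyond −1 are drawn at −1. The 9 factors lie around 0 (median 0.01), with Hand1 farthest to the left, while cartilage markers lie wholly to the right.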

How the data were processed

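Values were taken from 2 deposited tables laid out as Cufflinks isoform tables per the file headers, with 28107 RefSeq transcript rows each. The authors' deposited FPKM are scaled by transcript length and mapped fragments. A deposited coverage column, per the file headers, is a signal not scaled for depth. Alignment used TopHat 1.4.1 and Bowtie 0.12.7 with build mm9, per the submitters' processing notes. Not given in the sources used here are the Cufflinks version, read length and strand use. FPKM was summed per symbol, and the log2 ratio used a pseudocount of 1 FPKM, which understates differences of low genes. Coverage times length clustered at 47.1 bases for the lowest rows of genes of at least 1000 nt, taken as 1 read. This gave approximate reads and exact conditional (Clopper-Pearson) 95% intervals of each ratio (scipy 1.17.1). The computation was tried on simulated reads with counting error alone, which cannot show how the intervals cover other variation. For Prrx1 the interval was centred on the FPKM ratio. With 1 library per genotype no test was run. The 9 members were set by symbol, and 15 gene lists were fixed for comparison. The members and lists were chosen with earlier results of these data known. From each list up to 4 genes with at least 5 FPKM, by size of the log2 ratio, could be named. Exceptions are the pathway genes Edn1, Ednra, Dlx5, Dlx6 and Msx2, the chromosomal neighbours, Tcf3, Tcf4, Ptch1, Hba-a2 and Hbb-b2. Sequences came from GENCODE M21 on GRCm38, whose coordinates were not mixed with the mm9 table.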

Additional observations from a re-analysis of the deposited data

How the results depend on the processing

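The 11 results on the 9 factors were recomputed with a pseudocount of 0.1 FPKM, with the median set to 0, with quantile normalization, on the TPM scale, from the highest transcript row alone and from coverage scaled by depth. All 66 values moved by less than the counting error of the gene or gave the same count. The log2 ratio of Hand1 ran from −0.39 to −0.35 and that of Twist2 from −0.17 to −0.17. Prrx1 and Alx1, both near 0, changed sign within counting error: Prrx1 was 0.05 from its highest row alone, and Alx1 was −0.02 after quantile normalization. The medians of the 15 lists, taken at 5 FPKM, with no filter and under the first 4 of these settings, moved by less than the median counting error of their genes in 90 of 90 values. Some still changed sign or came near 0: at 5 FPKM the median of related bHLH factors was 0.18 (main −0.15), that of the endothelin and Dlx pathway −0.0050 (main 0.05), that of muscle markers 0.03 (main −0.03) and that of macrophage markers 0.03 (main 0.20). At 5 FPKM the value of related bHLH factors rests on Scx and Msc alone, and that of macrophage markers on Laptm5 alone. With no filter, related bHLH factors had 0 and macrophage markers 0.05. The share of measured genes past the fold threshold in either direction, 5.43% at 1 FPKM, was 3.04% at 5 FPKM and 1.96% at 20 FPKM, where low genes with few reads are left out. Leaving out a library was not possible with 1 per genotype. Depth limits Alx1 most, with about 164 reads in the control.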
